A study of Mus musculus with 28 samples.

Results

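The Hox cluster genes are the 39 mouse genes whose symbol is Hoxa, Hoxb, Hoxc or Hoxd followed only by a number from 1 to 13. All 39 were present among the 24946 gene symbols of each of 4 deposited tables of normalized counts from epidermis. A Hox gene encodes a transcription factor that binds DNA through a homeodomain and, often together with Pbx and Meis partner proteins, gives cells their position along the body axis. The genes lie in 4 clusters, and the order within a cluster follows where along the body each gene is used, low paralog numbers towards the head and high numbers towards the tail and the limb ends. In mammals the clusters are classic targets of Polycomb repression through trimethylation of histone H3 at lysine 27. Adult skin keeps a regional Hox pattern, and Hoxc13 is in addition known as a regulator of hair keratin genes in the hair shaft.

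The study deleted Kdm6a, named Utx in the genotypes and located on the X chromosome, whose product removes that mark, with a Krt14-Cre transgene, which is active in the keratin 14-positive basal layer of epidermis and its appendages. Deletion is therefore intended for that lineage, with other cells of the sampled tissue keeping the floxed allele. Where the deletion took place was not measured here. Control females were Cre-; Utx fl/fl (4 young, 2 aged) and conditional knockout (cKO) females were Cre+; Utx fl/fl (5 young, 2 aged). Control males were Cre-; Utx fl/Y, except young male control 3, which was Cre-; Utx +/Y (3 young, 3 aged), and cKO males were Cre+; Utx fl/Y (3 young, 3 aged). Heterozygous females, Cre+; Utx +/fl, have no per-library values here. The ages come from the titles of the tables, no age in weeks and no body site is given, and no label says that replicates are separate animals, so p-values measure only the spread between these samples.

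The 25 libraries with values held about 15.8 to 34.4 M reads each, and Krt14, a keratin of the basal layer, stood at 82798 to 250049 over all of them. Kdm6a was lower in every cKO library than in every control library in young females, young males and aged females. Its log2 changes there were -0.50, -0.93 and -1.21, so transcript remained in the cKO libraries. In aged males the groups overlapped, because the library labelled cKO 5 held Kdm6a at 1322, inside the control range of 1090 to 1511. The same library held Gh, the growth hormone gene, at 0, whereas Gh stood at 331 to 866 in the 12 other cKO libraries. The libraries labelled aged male control 5 and control 6 held Gh at 2443 and 559, against at most 2.58 in the 10 other controls. Directions in aged males rest on these labels and are given below also without those 3 libraries. Both aged cKO females stood apart as well. Xist, the RNA that coats the inactive X chromosome, was at 17.1 and 14.4 in them, against 18431 and 20923 in the aged control females, 6239 to 12511 in the young females and at most 59 in the males. The 4 Y-linked genes Ddx3y, Uty, Kdm5d and Eif2s3y were at 0 to 2.07 in these 2 libraries, as in the other females, and at 215 to 2509 in the males. The aged female table has no other cKO library, so there the difference between genotypes, that of Kdm6a included, cannot be told apart from the difference in Xist.

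The levels followed paralog number. Of the 39 genes, 25 had a mean above 10 in each of the 4 tables, namely 24 of the 27 genes of paralog groups 1 to 9 and, of the 12 genes of groups 10 to 13, only Hoxc13. Another 12 genes were above 10 in no table: Hoxb1, Hoxd1, Hoxa10, Hoxa11, Hoxa13, Hoxb13, Hoxc11, Hoxc12, Hoxd10, Hoxd11, Hoxd12 and Hoxd13. Hoxc9 and Hoxc10 passed 10 in aged males alone, with means of 31.2 and 14.3. Apart from Hoxc13, no gene of groups 10 to 13 exceeded 31.9 in any library, and 1 gene, Hoxd13, was listed at 0 in all 25.

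Per kilobase of exon, Hoxa5 had the highest mean in every table, from 541 normalized counts per kb in young males to 793 in aged females. Hoxa7 of the same cluster followed in every table, at 329 to 485 per kb. In young females Hoxa5 ranged over libraries from 503 to 669 per kb and Hoxa7 from 131 to 500, so this pair did not overlap there. The genes Hoxb6, Hoxb7 and Hoxb8 came next in young females, at means of 279, 228 and 221 per kb, and their ranges over libraries overlapped. The Hoxb cluster carried 41.2% to 49.1% of the summed Hox counts in young females, Hoxa 31.6% to 37.2%, Hoxc 12.2% to 19.8% and Hoxd 1.17% to 7.15%. Hoxd was thus the weakest cluster in every young female library, and the one whose share varied most in proportion. In bulk tissue, fewer cells of a type and less RNA per cell cannot be told apart.

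**Figure D1:**
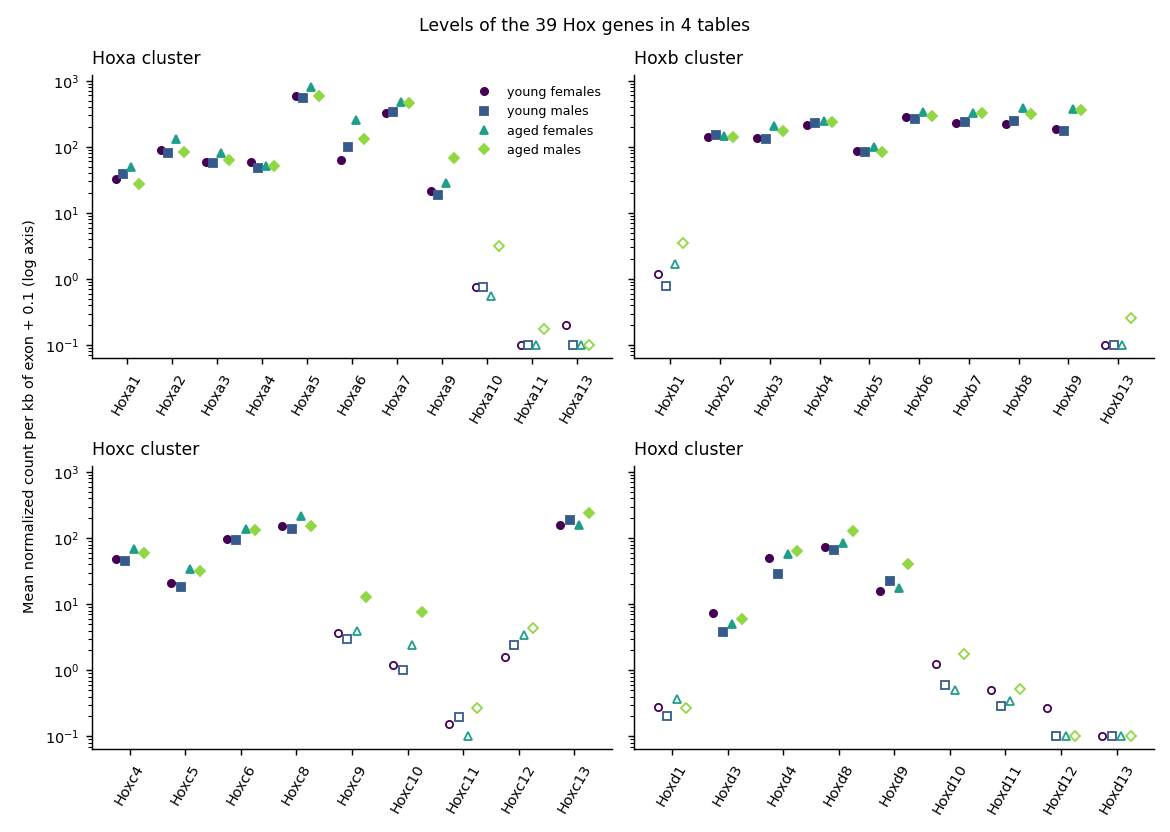
Mean normalized count per kilobase of exon plus 0.1 (log axis) for each of the 39 Hox genes, in cluster order by paralog number, with 1 marker per table. Filled markers are genes with a mean above 10 before division by length; the high-numbered genes lie near the bottom except Hoxc13, at 160 to 243 per kb.

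Hoxc13 is the gene the knockout comparison turns on, and Hoxb8 and Hoxb9 are among the genes that differed between libraries by the start of the library name. All 39 genes share the homeobox, and the coding stretch for the DNA-contacting helix shows how far Hoxb8 and Hoxb9 differ from Hoxc13 there. Hoxa13, Hoxb13 and Hoxd13, of the same paralog group as Hoxc13, were not compared over this stretch. The 60 bases are given 5′ to 3′ from GENCODE transcripts of GRCm38, and capitals mark bases that differ from Hoxc13.
Hoxc13 (chr15:102927315-102927374, plus strand, coding exon): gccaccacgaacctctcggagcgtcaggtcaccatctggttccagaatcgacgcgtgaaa
Hoxb8 (chr11:96284279-96284338, plus strand, coding exon): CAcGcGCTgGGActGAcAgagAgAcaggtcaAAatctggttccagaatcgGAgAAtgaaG
Hoxb9 (chr11:96274764-96274823, plus strand, coding exon): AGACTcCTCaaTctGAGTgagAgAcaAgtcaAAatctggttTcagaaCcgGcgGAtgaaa
Hoxb8 differs from Hoxc13 at 21 of the 60 bases and Hoxb9 at 23. Over the longest coding transcripts of all 39 genes, 2 of 741 pairs shared an exact run of 50 bases or more. The longest was 52 bases, between Hoxa6 and Hoxb4, and Hoxb9 shared 50 bases with Hoxc9. Separately, 16 genes share exon bases with another annotated gene, 9 on the same strand and 10 on the opposite strand. Whether the authors' counting used the strand is not given in the sources used here, so antisense neighbours may be counted into these 10. None of Hoxc13, Hoxc8, Hoxb8 and Hoxb9 is among the 16, whereas Hoxa7, Hoxa9, Hoxb2, Hoxb3, Hoxb5, Hoxd3 and Hoxd4, all named below, are. Hoxd3 and Hoxd4 share exon bases with each other on the same strand.

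The first comparison asks how loss of Kdm6a in young female epidermis moved the Hox genes. Of the 39 genes, 25 passed the filter on low values and were tested. Hoxc13 fell, and no other Hox gene was called. Control libraries held Hoxc13 at 470, 496, 573 and 428 normalized counts, and cKO libraries at 306, 356, 288, 318 and 319. Every cKO library lay below every control, as in 4.89% of all genes, at 317 ± 25.1 (SD, n = 5) against 492 ± 61.1 (SD, n = 4). The log2 change was -0.63 ± 0.11 (SE), with a limma adjusted p of 0.0141 over all 13898 genes tested. The exact two-sided permutation test over libraries gave p = 0.00794, the smallest that 4 against 5 allows. Over all genes 3.94% were called, so 1 of 25 Hox genes (2.40% of all genes were called lower) is near that background.

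The fall of Hoxc13 was seen within each group of libraries that share the start of their library name. These names begin with U01, U02 or U04, and no label says what the prefixes mean. The log2 changes of Hoxc13 were -0.55 within U01, -0.92 within U02 and -0.42 within U04. In young females U04 held only control 4 and cKO 5, and U02 only control 3 with cKO 3 and cKO 4. The changes within U02 and U04 therefore rest on a single control library each. With the U01 libraries alone the adjusted p was 0.109, and with U02 and U04 alone it was 0.112, both from fits with fewer libraries. The authors' deposited table gave a log2 fold change of -0.63 for Hoxc13 with an adjusted p of 3.2e-05. Of the 9294 genes with an adjusted p in the part of it used here, 7.18% were called.

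Genes of the hair shaft, where Hoxc13 is known to act, were measured beside it. Of the 25 listed hair shaft keratins and cortex genes, 8 passed the filter, 1 was called higher (Tchh, trichohyalin, log2 change 1.001) and 1 lower (Krt32, a hair keratin, -0.80), where 3.94% of all genes were called in either direction. Only 2 of the 8 had a log2 change above 0, and their median was -0.20, against -0.01 over all genes. The summed level of the list lay between 1850 and 2895 over the controls, and 1519 and 2076 over the cKO libraries, so the ranges overlapped. The summed level of 10 Langerhans cell and myeloid markers did not overlap, at 21536 to 28321 over the controls and 28722 to 40609 over the cKO libraries. All 10 had a log2 change above 0 and 1 was called (Csf1r, a receptor of myeloid cells, 0.78). The part of hair follicle and immune cell content in the Hoxc13 difference was not tested.

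Most of the other Hox genes had small positive changes in young females that did not pass the adjusted threshold. Of the 25 tested, 22 had a log2 change above 0, against 49.0% of all genes, and the median was 0.27 against -0.01. The exceptions below 0 were in the Hoxc and Hoxd clusters, and all 8 Hoxa and all 8 Hoxb genes tested were above 0. Hoxc8, a gene of the trunk region, held 345, 344, 378 and 350 in controls and 379, 481, 626, 499 and 528 in cKO libraries. All 5 cKO libraries were above all controls. Its log2 change of 0.49 ± 0.14 (SE) had a limma adjusted p of 0.0848, which became 0.0208 with the start of the library name as a block, so the block turns this call. The authors' deposited table gave 0.51 for Hoxc8 with an adjusted p of 0.015. Hoxb7, another trunk gene, was the other member with every cKO library above every control (3.74% of all genes), at 285 to 356 in controls and 358 to 398 in cKO. Its log2 change was 0.24 ± 0.10 (SE), with a limma adjusted p of 0.263. Hoxb3 and Hoxb5, genes of the neck and upper trunk, had changes of 0.28 and 0.44 and adjusted p-values of 0.224 and 0.289. The changes of Hoxb2, at 0.27, Hoxb4, at 0.17, and Hoxb6, at 0.26, had adjusted p-values of 0.476, 0.746 and 0.474.

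Of the most abundant members, Hoxa5, Hoxa7 and Hoxb4 were called in no table. Hoxa5, a gene of the neck and upper trunk, held 957, 944, 1173 and 1105 in young female controls and 1165, 1255, 1160, 1044 and 964 in cKO libraries, so the groups overlapped. Its log2 change was 0.10 there, 0.13 in young males, 0.15 in aged females and 0.18 in aged males, with limma adjusted p-values of 0.681 or more. Hoxa7 held 558, 376, 1355 and 1132 in young female controls and 698, 664, 1437, 1260 and 1048 in cKO libraries, and these groups overlapped too, with a log2 change of 0.37 ± 0.38 (SE). Hoxb4 overlapped as well, at 363 to 648 in controls and 425 to 762 in cKO.

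**Figure D2:**
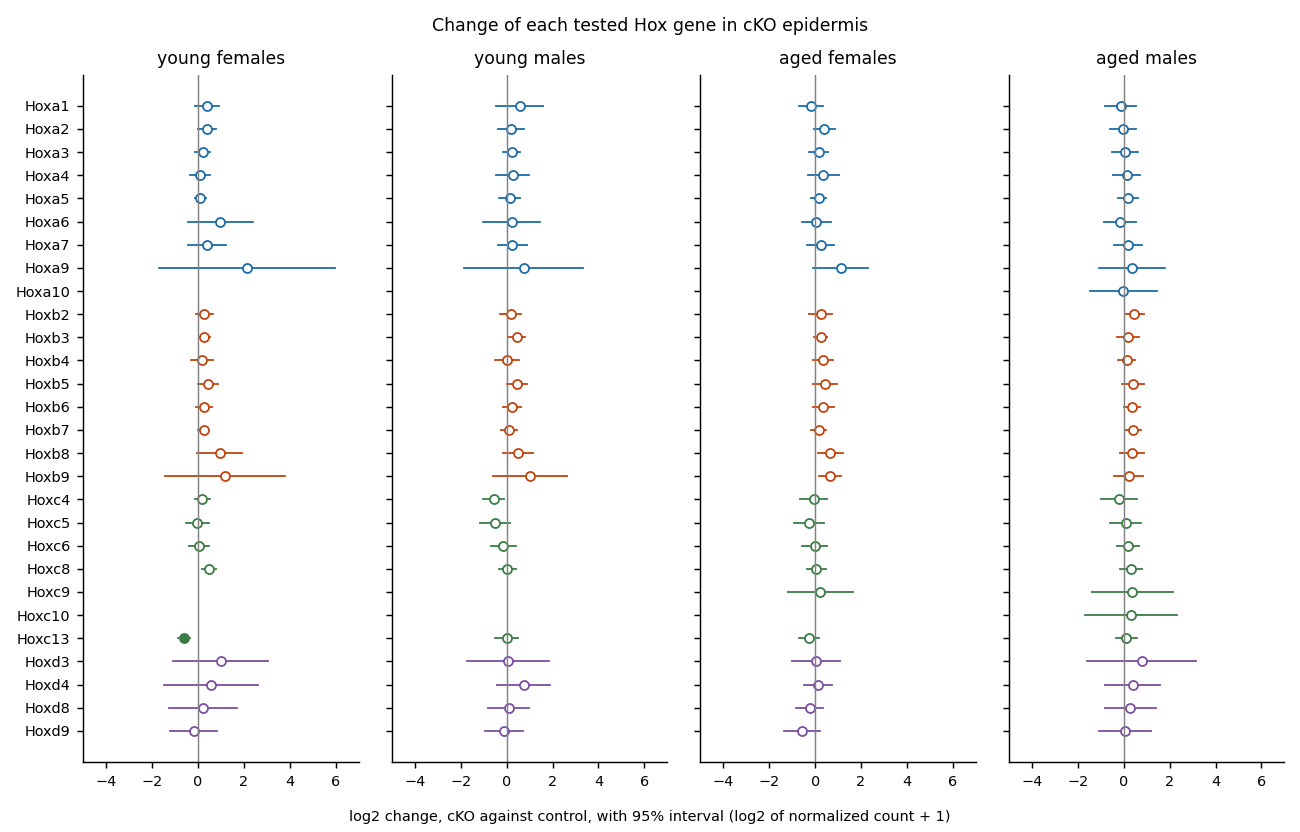
Log2 change, cKO against control, with 95% interval, for each Hox gene that passed the filter in each table, coloured by cluster. The only filled point, with an adjusted p under 0.05, is Hoxc13 in young females at -0.63; all 8 Hoxb points lie right of 0 in each of the 4 panels.

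In young males the comparison was made with 3 libraries against 3, where the exact test cannot go below 0.1. None of the 25 Hox genes tested was called, and 0.0146% of all genes were. By unadjusted limma p under 0.05, 2 Hox genes were higher and 1 lower, against 1.40% and 0.924% of all genes. Hoxb3 held 517, 502 and 416 in controls and 651, 561 and 731 in cKO libraries. Among the Hox genes tested, 2 (Hoxb3 and Hoxb5) had every cKO library above every control and 1 (Hoxc4) below, against 3.46% and 2.42% of all genes. The log2 change of Hoxb3 was 0.44 ± 0.16 (SE), with an exact permutation p of 0.1. Hoxb5 stood at 228, 181 and 183 in controls against 248, 256 and 308, with a change of 0.45 ± 0.19 (SE) and the same exact p of 0.1. Hoxc4, a gene of the neck region, moved the other way, from 137.2, 127.3 and 145 to 92.4, 87.2 and 95.4. That change was -0.57 ± 0.20 (SE), again with no overlap. Hoxc13 showed no difference that these libraries could resolve, at 616, 399 and 381 in controls against 547, 400 and 425, and its log2 change was 0.00 with a 95% interval of -0.52 to 0.51. Of the 25 genes, 20 had a log2 change above 0, against 49.1% of all genes, with a median of 0.17. Changes were also above 0 for 11 of 12 hair follicle stem cell, 3 of 6 adipocyte and 4 of 8 T cell markers. They were above 0 for 0 of 12 skeletal muscle (median -2.38), 0 of 8 endothelial, 2 of 15 fibroblast and 1 of 10 Langerhans cell and myeloid markers. The part of these markers in the Hox values was not tested.

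In aged females, with 2 cKO libraries low in Xist against 2 controls with high Xist, none of 26 Hox genes was called, against 0.669% of all genes. By unadjusted limma p under 0.05, 2 Hox genes were higher and 0 lower, against 5.58% and 8.74% of all genes. Hoxb9 and Hoxb8, a pair of adjacent genes, had the smallest adjusted p-values. Hoxb9 held 711 and 747 in controls and 1400 and 935 in cKO libraries, a log2 change of 0.65 ± 0.20 (SE) with a limma adjusted p of 0.216. Hoxb8 held 857 and 723 against 1552 and 998, a change of 0.66 ± 0.22 (SE) with an adjusted p of 0.253. Neither gene's groups overlapped, as was true for 8 Hox genes upward and 3 downward, against 22.2% and 22.0% of all genes. Hoxc13 was again lower in both cKO libraries, 304 and 413 against 420 and 439, but its change of -0.28 had a 95% interval of -0.72 to 0.17. Here 19 of 26 genes had a change above 0 (50.8% of all genes), but without aged cKO female 6 it was 13 of 26, with a median of -0.01. The summed fibroblast and T cell markers were higher in both cKO libraries, at 9006 and 9580 against 8335 and 8366 and at 3352 and 4413 against 2524 and 2613. Those of adipocytes (777 and 1208 against 1526 and 1909), endothelium (267 and 366 against 397 and 596), hair shaft (3050 and 3203 against 3793 and 12036) and hair follicle stem cells (195426 and 200777 against 210534 and 229273) were lower in both. The part of these markers in the Hox values was not tested.

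In aged males none of 28 Hox genes was called, against 0.0140% of all genes, and 23 had a change above 0, against 49.9%. By unadjusted limma p under 0.05, 3 genes were higher, against 0.461% of all genes, and all 3 lie in the Hoxb cluster. In these 3 and in Hoxb5 every library labelled cKO lay above every control, against 2.36% of all genes. Hoxb7 held 431, 387 and 473 in controls against 573, 535 and 601.1, a change of 0.41 ± 0.15 (SE). Hoxb2 held 434, 442 and 352 against 588, 477 and 622, and its change was 0.45 ± 0.18 (SE). Hoxb6 held 544, 496 and 486 against 696, 600 and 658, with a change of 0.35 ± 0.14 (SE). The exact p was 0.1 for each, the smallest possible. With the labels as given, 15 of 16 tested fibroblast, 8 of 8 adipocyte, 9 of 9 endothelial and 7 of 8 T cell markers also had changes above 0. For skeletal muscle it was 1 of 12, and for Langerhans cell and myeloid markers 2 of 10. The part of these markers in the Hox values was not tested. Without the library labelled control 6, 11 of 28 Hox genes had a change above 0, and without the 3 doubtful libraries it was also 11 of 28, with a median of -0.05. Without those 3, the changes of Hoxb3, Hoxb4 and Hoxb9 were -0.18, -0.08 and -0.13 in place of 0.18, 0.13 and 0.21. Those of Hoxb2, Hoxb5, Hoxb6 and Hoxb7 were 0.48, 0.30, 0.31 and 0.44, each with a 95% interval that includes 0, and both cKO libraries left were above the control left.

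The cKO change was then compared between tables that share no libraries. No Hox gene passed the adjusted threshold for a difference between young females and young males, young and aged females, or young and aged males, with 25 genes tested in each. The comparison with aged females takes in the 2 cKO libraries low in Xist, so age and that difference cannot be told apart in it. Over all genes the shares called were 0%, 0.0218% and 0%. By unadjusted p the young sexes differed for 3 Hox genes, against 3.26% of all genes. The difference, female minus male, was -0.62 ± 0.25 (SE) for Hoxc13, 0.76 ± 0.25 for Hoxc4 and 0.45 ± 0.21 for Hoxc8, with adjusted p-values of 0.999, 0.873 and 0.999. The fall of Hoxc13 in young females is therefore not shown to differ from the change in young males.

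Across the 4 tables, 16 of the 25 Hox genes tested in all had a change above 0 in each, and none was below 0 in each. Over all genes 11.0% were above 0 and 12.3% below 0 in each table. The 16 comprised all 8 tested Hoxb genes, Hoxb2 to Hoxb9, with Hoxa3, Hoxa4, Hoxa5, Hoxa7, Hoxa9, Hoxc8, Hoxd3 and Hoxd4. The medians of the Hoxb genes were 0.28 in young females, 0.33 in young males, 0.34 in aged females and 0.36 in aged males. The Hoxc medians were 0.04, -0.15, -0.05 and 0.20. None of these 16 genes was called in any table without a block, and with the library-name block Hoxa9, Hoxb8 and Hoxc8 were called higher in young females. Neighbouring genes of a cluster are not independent, and the aged counts depend on single libraries and on labels as given above. In the 2 young tables alone, a count added after the data were seen, 20 of 25 Hox genes were above 0 in both, all 8 Hoxb genes among them, and 3 were below 0 in both, against 31.9% and 34.3% of all genes.

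For heterozygous females the authors' deposited table is the only source, and it lists no Hox gene with an adjusted p under 0.05. Of the 9226 genes with an adjusted p in the part used here, 0.271% were called. The mean of Hoxc13 in the authors' deposited table was 569 in controls and 562 in heterozygous females, a log2 fold change of -0.02. Hoxb8 stood at 732 and 958 and Hoxc8 at 413 and 542 in the authors' deposited table, with log2 fold changes of 0.39 for both. The means imply that controls made up 0.4 of the libraries averaged, the share that 2 controls with 3 heterozygous libraries would have. This comparison shares control samples with the young female one, and their values are set side by side only.

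Several members differed between young libraries by the start of the library name. This contrast, U01 against U02 and U04 with genotype as a second term, was chosen after the values were seen. In young females 13 of 25 Hox genes differed, 12 lower and 1 higher in U01, against 34.2% of all genes called (16.1% lower and 18.1% higher). In young males 4 of 25 differed, all lower in U01, against 2.61% of all genes called and 1.13% lower. Those 4 were Hoxa6, Hoxa9, Hoxb8 and Hoxb9, and all 4 were also lower in U01 in young females.

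Hoxa9, a gene of the posterior trunk, showed the largest difference, and was singled out after its values were seen. In young females the U01 libraries held 2.03 and 0 (controls) and 5.55 and 8.05 (cKO). The other libraries held 184 and 77.3 (controls) and 312, 279 and 198 (cKO), with no overlap. The log2 difference was -5.54 ± 0.40 (SE), with a limma adjusted p of 3.4e-05. All U01 values were below the filter value of 10, so its size rests on values near the floor. The gene entered this test only through the libraries where it is high, so that p-value carries no weight as support. In young males the U01 libraries held 11.9 and 14.8 and the others 80.6 to 267, a difference of -3.24 ± 0.36 (SE) with an adjusted p of 0.0316.

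Its paralog Hoxb9 was also lower in U01, at 21.1 to 96.7 in U01 and 403 to 1081 elsewhere in young females. The difference was -3.73 ± 0.35 (SE), and -2.06 ± 0.18 (SE) in young males. Hoxb8, next to it, stood at 155 to 504 in U01 and 611 to 937 elsewhere in young females, a difference of -1.34 ± 0.17 (SE). Among the Hoxd genes of young females the differences were -2.90 for Hoxd3, -2.85 for Hoxd4, -2.14 for Hoxd8 and -1.26 for Hoxd9. Hoxd3 stood at 2.66 to 10.6 in U01 and 32.9 to 72.3 elsewhere, so it too passed the filter through the other libraries. Hoxa6 and Hoxa7 differed by -1.75 and -1.12, and Hoxb5, Hoxb6 and Hoxc6 by -0.43, -0.44 and -0.50. Hoxb4 was the exception, higher in U01 at 548 to 762 against 363 to 480, a difference of 0.66 ± 0.10 (SE). Hoxc13 did not follow the pattern in young females, and all 3 Hoxa genes tested with numbers below 4 had intervals that include 0. In young males Hoxc13 was higher in U01 without overlap, at 547 to 616 against 380 to 425 elsewhere. Hoxb4 was higher there too, at 697 to 777 against 455 to 560. So were Hoxa4 (86.6 to 108 against 50.1 to 73.8), Hoxa5 (1145 to 1191 against 712 to 1093) and Hoxb2 (607 to 609 against 387 to 549). Hoxd10 was as well, near the floor, and none of these was called in young males. Hoxa6, Hoxa7, Hoxa9, Hoxb8, Hoxb9, Hoxc6, Hoxd3 and Hoxd9 were lower in U01 there without overlap. The share of all genes without overlap between these names was not computed.

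**Figure D3:**
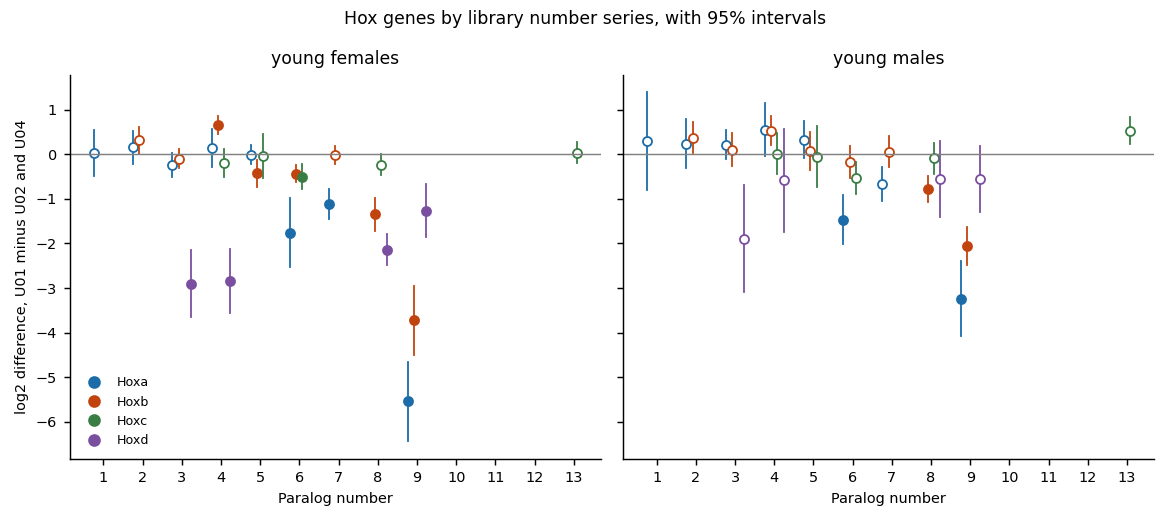
Log2 difference between U01 libraries and U02 and U04 libraries, with 95% interval, by paralog number in young females and young males, with genotype as a second term. Filled points have an adjusted p under 0.05; Hoxa9 lies lowest in both panels, at -5.54 and -3.24.

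Other transcripts moved with the same names. The summed melanocyte markers were 764 to 1069 in U01 and 1127 to 2216 elsewhere in young females, and 901 to 903 against 1063 to 1476 in young males. The summed fibroblast markers overlapped in young females, at 6158 to 7986 against 6025 to 12093, and were higher in U01 in young males, at 12295 to 19424 against 8217 to 11052. In aged females, where control 6 and cKO 7 were U01, the Hoxd share of the summed Hox counts had no common direction. It was 4.88% in control 6 against 4.11% in control 5, and 3.32% in cKO 7 against 3.58% in cKO 6. In aged males the 2 libraries whose names begin with U01 held Hoxa9 at 145 and 182 against 308 to 813 in the 4 others. Their summed fibroblast markers were 8601 and 10470 against 24526 to 42932 in those 4. In young males the adipocyte markers, at 534 to 657 in U01 against 251 to 335, and the endothelial markers, at 502 to 705 against 134 to 355, did not overlap either. The summed trithorax, COMPASS and H3K27 demethylase genes were lower in U01 in both young tables. They stood at 29515 to 30744 against 35966 to 39349 in females and 31791 to 32527 against 37059 to 40712 in males. The summed genes flanking the Hox clusters were higher in U01 in both. They stood at 26101 to 27619 against 23151 to 24996 in females and 25165 to 26942 against 24646 to 24992 in males. The part of cell content in these differences was not tested.

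The start of the library name also bears on the knockout comparison, since the names divide both genotypes. With it as a block, 4 Hox genes were called in young females: Hoxc13 lower at -0.63, and Hoxb8 at 0.80, Hoxc8 at 0.45 and Hoxa9 at 1.51 higher. Their limma adjusted p-values were 0.0036, 0.0122, 0.0208 and 0.0246. The Hoxa9 change was 2.15 within U01, where its values were only 0 to 8.05, 0.68 within U02 and 1.34 within U04. Without the block it was 2.13 with a pseudocount of 1 and 1.48 with 5, and the block fit was not repeated with another pseudocount. With the block 14.5% of all genes were called, 6.07% higher and 8.40% lower, so 4 of 25 is near the background. Hoxb8 held 237 and 155 in U01 controls against 504 and 386 in U01 cKO libraries, and 668 and 611 against 928, 937 and 817 elsewhere. Within each of U01, U02 and U04, 14 of 25 Hox genes were above 0 in young females and 10 of 25 in young males, against 24.5% and 13.6% of all genes. These directions rest on a single control library within U02 and within U04 of young females. In young males they rest on a single library per genotype within each of the names. In young males the block gave Hoxb9 a change of 1.02 with an adjusted p of 0.110, and no Hox gene was called, against 0.0509% of all genes.

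**Figure D4:**
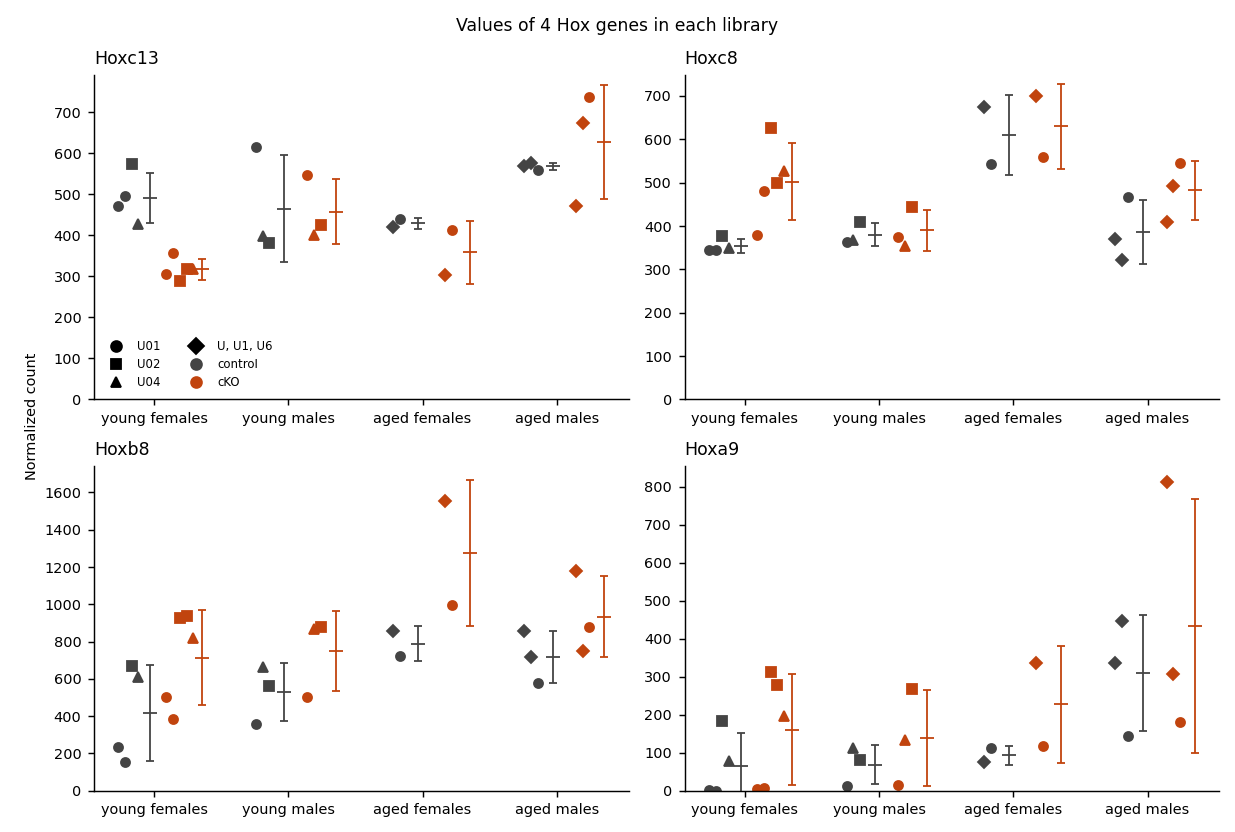
Normalized count of Hoxc13, Hoxc8, Hoxb8 and Hoxa9 in every library by table, with controls in grey and cKO in orange, marker shape for the start of the library name, and bars for mean and SD. For Hoxc13 in young females the 5 cKO points, at 288 to 356, lie below the 4 controls, while Hoxa9 splits by library name, with U01 at 0 to 8.05.

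Because Hoxa9 and Hoxb8 were lower and Hoxb4 higher in U01 libraries, the 250 bases before their starts are shown, 5′ to 3′, from RefSeq on GRCm38.p6. RefSeq windows were matched for 22 of the 39 genes. Capitals mark matches, on either strand, to the TATA box, spelled as TATAAA, the CCAAT box, spelled as its name, the GC box, spelled as GGGCGG, or a composite pattern for Hox and Pbx, spelled as TGATTNAT.
Hoxa9 (chr6:52227371-52227620, minus strand): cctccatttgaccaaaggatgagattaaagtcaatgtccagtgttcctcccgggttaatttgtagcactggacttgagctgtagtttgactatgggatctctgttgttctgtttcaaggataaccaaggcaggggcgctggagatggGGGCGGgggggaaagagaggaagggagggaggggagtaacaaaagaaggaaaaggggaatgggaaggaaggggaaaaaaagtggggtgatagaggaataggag
Hoxb8 (chr11:96281655-96281904, plus strand): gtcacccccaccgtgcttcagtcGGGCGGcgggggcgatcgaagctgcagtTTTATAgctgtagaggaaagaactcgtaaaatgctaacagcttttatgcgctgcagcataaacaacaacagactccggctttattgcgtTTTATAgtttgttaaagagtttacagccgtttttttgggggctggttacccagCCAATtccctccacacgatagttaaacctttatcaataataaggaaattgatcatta
Hoxb4 (chr11:96318017-96318266, plus strand): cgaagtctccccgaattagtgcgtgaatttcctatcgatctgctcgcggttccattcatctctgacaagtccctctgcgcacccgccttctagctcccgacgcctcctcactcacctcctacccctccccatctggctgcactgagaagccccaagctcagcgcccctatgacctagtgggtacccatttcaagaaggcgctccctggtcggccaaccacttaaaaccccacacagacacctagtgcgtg
Hoxb8 held 4 matches (2 TATAAA on the opposite strand, 1 CCAAT and 1 GGGCGG), Hoxa9 1 GGGCGG and Hoxb4 none, and no match overlapped another. Over all 32851 RefSeq windows, 12.4% held TATAAA, 33.8% CCAAT, 32.7% GGGCGG and 2.82% TGATTNAT. Among the 24 windows of Hox genes, 4 held TATAAA, 14 CCAAT, 10 GGGCGG and 2 TGATTNAT. The number of CG steps was 3, 12 and 14 for Hoxa9, Hoxb8 and Hoxb4, against a median of 6 over all windows and 12.5 over the Hox windows.

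Partners and regulators of Hox genes were measured alongside. Of the 9 TALE cofactors, the Pbx, Meis and Pknox proteins that bind DNA with Hox proteins, 1 was called higher and 1 lower in young females, where 3.94% of all genes were called. That share is also the background for the young female counts of the lists that follow. Pbx3 rose by 0.66 ± 0.14 (SE; limma adjusted p = 0.0308) and Pbx4 fell by 1.44 on the log2 scale (adjusted p = 0.0388). None of the 9 was called in young males, aged females or aged males, where 0.0146%, 0.669% and 0.0140% of all genes were called. Of 32 Polycomb group genes tested in young females, 1 was called: Cbx7, a reader subunit of Polycomb complex 1, with a change of -0.52 (adjusted p = 0.011). Of 22 trithorax, COMPASS and H3K27 demethylase genes tested there, Psip1 rose by 0.75 and Kdm6a itself was lower, at -0.50. Of the 14 tested genes of retinoic acid supply, a signal upstream of Hox genes in the embryo, Crabp2, a retinoic acid carrier, fell by 0.94 in young females and by 1.13 in aged females on the log2 scale (adjusted p = 0.0154 and 0.0391), the latter in the table whose cKO libraries were low in Xist. None of the 8 ParaHox and Evx genes passed the filter in any table.

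The noncoding genes inside the clusters and the genes beside them gave no call. Of 15 listed noncoding and antisense genes, 5 passed the filter in young females, 5 in young males, 6 in aged females and 5 in aged males. Of 22 listed flanking genes, 16 were tested in each table and none was called. Over all genes the shares called in those tables were 3.94%, 0.0146%, 0.669% and 0.0140%. Mira, a noncoding gene of that list, had changes of 0.39, 0.13, 0.32 and 0.10 in the order of those tables.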

How the data were processed

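Poly(A) RNA from mouse epidermis was sequenced, and 4 tables hold the authors' deposited normalized count values (a signal per gene and library), which are not whole counts. Of the low values, 54.2% to 88.6% per library lay within 0.1 step of a whole multiple of a library step, so reads were not recovered. The submitters' processing notes name STAR, DESeq2, GRCm38 and mm10, without roles; counting program and annotation are not given in the sources used here. The authors' deposited comparison tables hold a log2 fold change, its standard error, a test score and a p-value per gene, together with mean signal values; their genes after Olfr577 were not analysed here.

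In each table, limma 3.58.1 (R 4.3.3) with an intensity trend was fitted to log2(value + 1) for every gene that reached 10 in at least n libraries, n being the size of the smaller group. P-values were adjusted over all tested genes by Benjamini and Hochberg, with a threshold of 0.05. A fold change on this scale understates the change of low genes. Each table was scaled separately, so tests stay within tables. A difference between 2 tables was the difference of the limma changes over its summed error, adjusted over genes tested in both. The model was tested on simulated data. A count model had been planned for whole counts, and the values being normalized, limma was used. The 26 date-like names per table were left out. Genes to be named were those called in a table, those with an unadjusted p under 0.05, and the 6 highest of each table, 13 in all. The members and lists were chosen with earlier results of these data known. Library names carry no replicate numbers; their first characters served as a block, and the labels do not say that they mark a batch. Depth is known only as the approximate reads, and the values carry no counting interval. Alternatives were pseudocounts of 5 and 0.5, no filter, a filter at 50, TMM and quantile scaling, the block, and each library left out.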

Additional observations from a re-analysis of the deposited data

How the results depend on the processing

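Hoxc13 in young females kept its direction and its call under both other pseudocounts, without a filter, with a filter at 50, with TMM or quantile scaling, with the library-name block and with each library left out, when its log2 change ran from -0.69 to -0.55. The count of called Hox genes in young females was 1, and it was 4 with the library-name block as a pairing (2011 genes called in place of 547), 0 in U02 and U04 libraries alone, and 1 to 2 with one library left out, the second being Hoxc8 without cKO 1. In U01 libraries alone Hoxb8 was the 1 gene called, at 1.20, and Hoxc13 was not, at -0.55; in U02 and U04 alone Hoxc13 was -0.68, Hoxa5 -0.11 and Hoxa7 -0.00012. The fits on part of the libraries hold fewer samples and were chosen after the data were seen. In young males Hoxc13 changed sign with TMM scaling, at 0.0029, and in U02 and U04 alone, at 0.082; the cause was not tested. Without the 3 doubtful aged male libraries, also chosen after the data were seen, Hoxa5, Hoxb3, Hoxb4 and Hoxb9 were at -0.0095, -0.18, -0.076 and -0.13. With one library left out, changes near 0 turned sign, within these ranges of the log2 change. In young males they were -0.082 to 0.29 for Hoxa5, -0.14 to 0.25 for Hoxb4, -0.061 to 0.10 for Hoxc8, -0.14 to 0.22 for Hoxc13 and -0.22 to 1.94 for Hoxa9. In aged females they were -0.15 to 0.62 for Hoxa7, -0.029 to 0.51 for Hoxb2, -0.34 to 0.20 for Hoxc4 and -0.11 to 0.21 for Hoxc8. In aged males they were -0.0014 to 0.30 for Hoxa5, -0.051 to 0.33 for Hoxa7, -0.033 to 0.41 for Hoxb9, -0.40 to 0.14 for Hoxc4, -0.013 to 0.31 for Hoxc13 and -0.24 to 0.84 for Hoxa9. The other 3 tables called 0 Hox genes in every fit, and the 3 differences between tables called 0 with a pseudocount of 1 or 5. The number of Hox genes above 10 was 25 by mean, median or control mean in 3 tables, and 27, 28 and 27 in aged males. A count test was not run because whole reads were not recovered.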

Other observations

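Of 30 listed homeobox genes of skin outside the Hox clusters, 22 were tested in young females, 2 were called higher and 1 lower, where 3.94% of all genes were called. Irx3 rose by 0.60 ± 0.13 (SE; limma adjusted p = 0.0288) and Tshz2, a zinc finger and homeobox gene, by 0.51 ± 0.11 (SE; adjusted p = 0.0328). Dlx5, a homeobox gene of the Distal-less family, fell by 0.91 on the log2 scale (adjusted p = 0.0263). None of the list was called in young males, aged females or aged males, where 0.0146%, 0.669% and 0.0140% of all genes were called. Markers of the hair follicle stem cell held 12 tested genes in young females, of which Cdh3, P-cadherin, was called lower at -0.63.

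Of 8 tested suprabasal keratinocyte markers in young females, Ivl (involucrin) rose by 1.33 and Krt1 (keratin 1) by 1.25, and none of 8 basal markers was called. Only 4 of the 8 suprabasal markers had a log2 change above 0, with a median of 0.02. The summed suprabasal markers overlapped, at 534206 to 737356 in controls and 486868 to 858948 in cKO libraries. Of 6 tested melanocyte markers Kit was the 1 called, at 1.66, but only 2 of the 6 had a log2 change above 0, with a median of -0.07. The summed melanocyte list overlapped, at 764 to 1736 in controls and 843 to 2216 in cKO libraries. No marker of the fibroblast, skeletal muscle, adipocyte, endothelium or T cell lists was called in young females. Log2 changes were above 0 there for 14 of 15 tested fibroblast markers (median 0.40) and 7 of 8 T cell markers (median 0.21). They were above 0 for 0 of 8 skeletal muscle (median -1.30), 4 of 7 adipocyte and 4 of 6 endothelial markers, against 49.0% of all genes. The part of these markers in the Hox values was not tested. In aged females, where both cKO libraries were low in Xist, the adipocyte gene Adipoq was lower, at -3.03.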
